A study of Drosophila melanogaster with 12 samples.

Results

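Larvae carrying either of 2 kdm5 mutations were compared together with wild type, using all 12 samples of the study: 8 mutant samples and 4 wild-type (WT) samples. Messenger RNA was measured by sequencing in the ventral nerve cord, the segmental part of the larval central nervous system, of wandering Drosophila melanogaster larvae of the third instar grown at 25C. The L854F group (4 samples) was homozygous for kdm5 L854F, a missense allele, and the JmjC group (4 samples) was homozygous for kdm5 JmjC*, which the series title calls enzymatically inactive. The WT group (4 samples) was homozygous for the kdm5 140 allele and carried gKDM5, a genomic kdm5 transgene that rescues it. Larvae of both mutant groups thus differed from WT in the transgene and the 140 chromosome as well as in the KDM5 protein, and these cannot be told apart. Sex, the number of larvae in a sample and any batch are not stated, and nothing says that the samples of a group came from separate crosses, so p-values measure the spread between these samples, which may be technical.

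KDM5 is a chromatin protein of the JmjC family. It removes methyl groups from lysine 4 of histone H3, a mark of active promoters, through its JmjC domain, and it also affects transcription through other domains that bind histones and partner proteins. Human KDM5 genes are mutated in forms of intellectual disability, and the fly gene, which has no paralog, is used to study how such mutations alter neurons. The question put to the data was which genes changed in the same direction in both alleles relative to WT, and which changed in opposite directions.

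The deposited tables, 1 per allele with the same WT samples in each, listed 13758 genes for L854F and 13909 for JmjC, and 13416 genes were in both. Samples held 15103631 to 16850705 expected counts, and 9035 to 9345 of the joined genes had at least 10 counts in a sample. After a filter on low counts 9354 genes were tested in a single fit of all 12 samples. Summed levels of 16 neuron markers were 10100 to 11900 CPM (counts scaled to library size) in L854F, 10400 to 12200 CPM in JmjC and 10400 to 11600 CPM in WT. The sums for 29 neuroblast markers were 10900 to 13900, 11600 to 13000 and 11000 to 13900 CPM in the same order. Glial markers summed to 3470 to 4030 CPM in L854F, 4010 to 4620 CPM in JmjC and 3780 to 4260 CPM in WT, so markers of the tissue named in the labels were present in every sample. On the first principal component (34.7% of variance) the 4 JmjC samples stood apart from the other 8. On the second (21.9%) L854F lay on one side, WT on the other and JmjC between them.

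The kdm5 transcript itself (Kdm5, FBgn0031759, 2L:5989400-5999501, minus strand) was present in every sample. Its level was 795, 788, 729 and 785 CPM in L854F replicates 1 to 4, 792, 813, 727 and 759 CPM in JmjC, and 733, 730, 665 and 734 CPM in WT. The groups overlapped. The mean was 774 ± 30.5 CPM in L854F, 773 ± 37.9 CPM in JmjC and 716 ± 33.9 CPM in WT (SD, n = 4 each). The pooled log2 fold change was 0.11 (SE 0.05), which did not pass the test across genes (edgeR adjusted p = 0.159), while permuting the sample labels for this gene alone (exact test on log2 CPM, two-sided) gave p = 0.0283 over 495 assignments, where 0.00202 is the smallest possible. Both mutations alter the protein and leave a transcript, and WT makes its own from a transgene, so these levels do not check the genotypes.

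Giving each allele equal weight, 1032 of 9354 genes passed an adjusted p of 0.05 in the mutants against WT (11.0%), 550 higher (5.88%) and 482 lower (5.15%). Without adjustment 2225 genes (23.8%) had a p under 0.05, and DESeq2 called 1192 (12.8%). The median size of the called changes was 0.427 on the log2 scale, and the median over all genes was 0.0016. In the same fit L854F against WT gave 538 calls (5.75%; 281 higher, 3.0%, and 257 lower, 2.75%), JmjC against WT gave 1661 (17.8%; 901 higher, 9.63%, and 760 lower, 8.12%), and L854F against JmjC gave 1769 (18.9%). Of the 1032 pooled calls, 261 were also called in each allele with the same sign, 604 in JmjC only, 128 in L854F only, 34 in neither allele and 5 in both with opposite signs. The sign of the change was equal in both alleles for 960 of the 1032. The pooled change was the mean of the allele changes, and both alleles were compared with the same WT samples, which favours equal signs. The count of 960 is therefore not a measure of likeness between alleles. A pooled call can rest on 1 allele, as the genes called in JmjC only or in L854F only show. When the 8 mutants were fitted as a single group, so that differences between alleles counted as error, 369 genes passed.

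**Figure D1:**
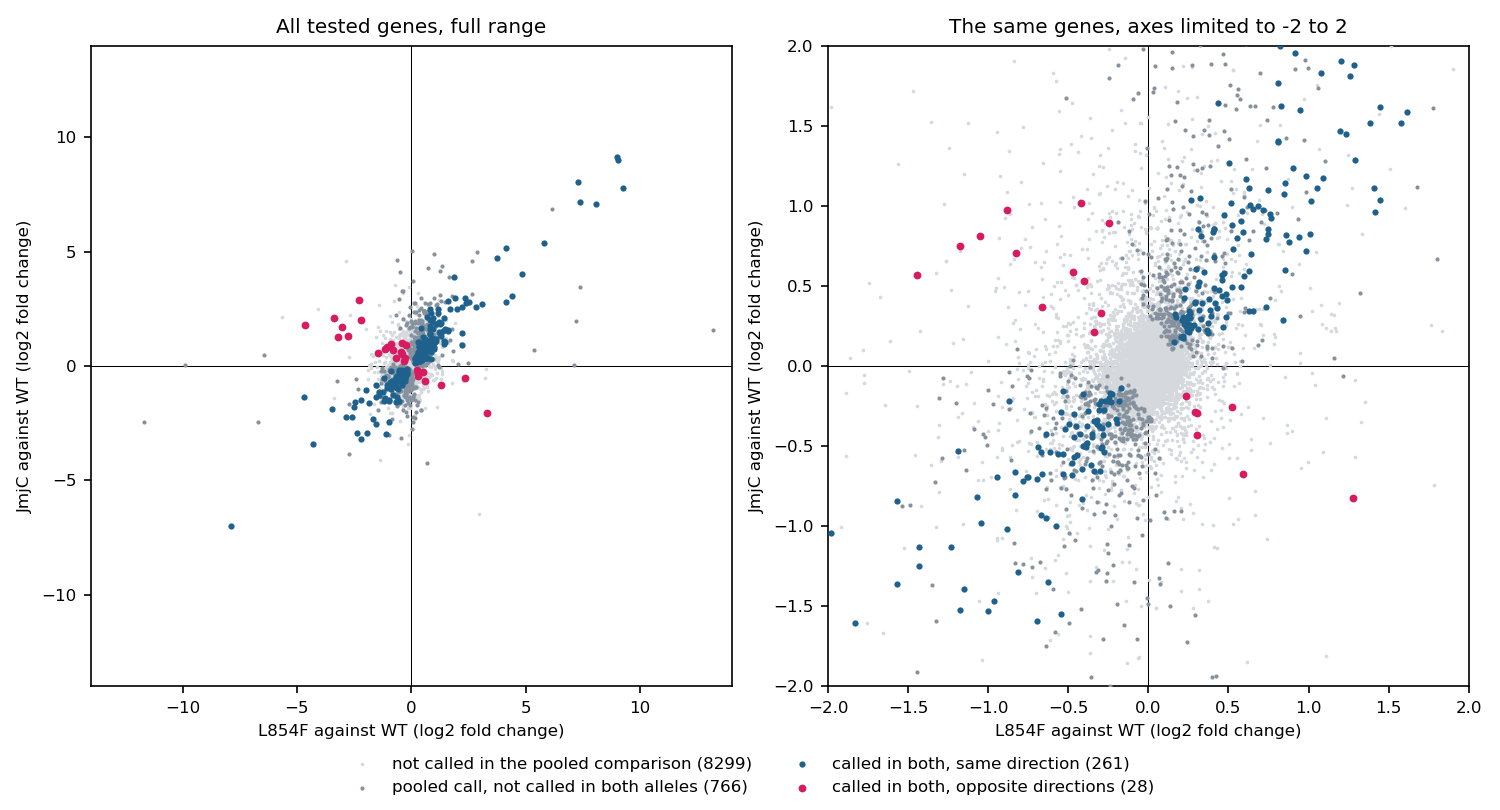
Log2 fold change of each tested gene in L854F against WT (horizontal axis) and in JmjC against WT (vertical axis), from 1 fit of 12 samples. Blue and red points are the 261 genes called in both alleles in the same direction and the 28 called in opposite directions; both comparisons use the same 4 WT samples, so the spread along the diagonal is shared in part.

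Both alleles moved 261 genes in the same direction (2.79% of those tested), 157 higher (1.68%) and 104 lower (1.11%). The 2 allele comparisons share their WT samples, so this count is not a measure of likeness between alleles. Of the 261, 80 also differed between L854F and JmjC, 154 had the larger change in JmjC and 107 in L854F. In 242 of them no mutant sample overlapped any WT sample, where 4.65% of all tested genes showed that separation. The calls rest on the same samples, so this separation largely follows from them and adds no separate support. The median log2 change of those that rose was 0.638 in L854F and 0.857 in JmjC, and of those that fell it was -0.545 in L854F and -0.614 in JmjC. The log2 change was 1 or more in size in both alleles for 66 genes. Genes without a symbol numbered 23.

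Several of the largest shared rises were of transcripts nearly absent from WT. Sordd2 (sordd2, FBgn0052581, X:15796908-15799162, minus strand) encodes a ubiquitin ligase of endoplasmic reticulum-associated degradation, per the gene ontology column of the authors' deposited table. L854F samples had 32.5, 34.5, 35.5 and 39.0 CPM of sordd2 and JmjC samples 35.6, 36.5, 33.1 and 36.6 CPM, against 0, 0, 0.237 and 0 CPM in WT. Its pooled log2 fold change was 9.02 (SE 0.25, adjusted p = 3.51e-11), and the change was 9.02 in each allele. The neighbouring related gene sordd1 (X:15793721-15796028), with which reads could be shared, was at 161, 154, 171 and 180 CPM in L854F, 167, 170, 180 and 171 CPM in JmjC, and 136, 141, 146 and 142 CPM in WT. Sordd1 was therefore present in all groups, with a called log2 change of 0.23 in L854F and 0.28 in JmjC.

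CG12607 (3L:4446573-4448072, plus strand) was at 5.33, 3.07, 3.32 and 6.78 CPM in L854F, at 1.1, 1.8, 1.95 and 1.86 CPM in JmjC, and at 0 in all WT samples. Taking 3 counts per library as the limit that a count of 0 allows, it was at least 25.5-fold higher in L854F and at least 9.25-fold higher in JmjC (adjusted p = 1.62e-05 pooled), and the alleles differed from each other (adjusted p = 0.00735). CG18417 (3L:7400070-7401671, plus strand), a metallocarboxypeptidase by annotation, was at 6.0, 5.44, 3.65 and 8.41 CPM in L854F and 10.5, 8.96, 8.48 and 11.6 CPM in JmjC, against 0.0595, 0.0625, 0 and 0 CPM in WT. Its mean in the mutants was 260 times that in WT, with a 95% exact Poisson interval of 72.1 to 2150 that covers counting error only (adjusted p = 1.23e-07). WT held a single count in each of the samples above 0.

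A pair of transcripts without a symbol or a position belongs to this set. BGI_novel_G000040 was at 3.55, 2.69, 5.44 and 3.99 CPM in L854F, 3.55, 4.04, 5.06 and 4.59 CPM in JmjC and 0 in WT, at least 21.6-fold higher in L854F and at least 23.7-fold higher in JmjC (adjusted p = 1.32e-06 pooled). BGI_novel_G000039 was at 30.6, 27.5, 39.6 and 28.5 CPM in L854F and 26.5, 26.7, 20.6 and 21.5 CPM in JmjC, against 0.179, 1.0, 0.593 and 0.485 CPM in WT. Its pooled log2 fold change was 5.59 (SE 0.23, adjusted p = 4.64e-09), and its best protein match in the authors' deposited table was a blastopia polyprotein, the product of a retrotransposon.

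The other named rises were of genes low in WT but detected there. CG31220 (3R:19648487-19650586, plus strand), a predicted serine endopeptidase, was at 2.82, 4.19, 3.12 and 2.24 CPM in L854F and 5.99, 5.6, 5.55 and 7.38 CPM in JmjC, against 0.298, 0.188, 0.119 and 0.0607 CPM in WT. It rose by 4.15 on the log2 scale in L854F and by 5.14 in JmjC (pooled adjusted p = 4.97e-07), and the difference between alleles passed (adjusted p = 0.00779). The noncoding RNA lncRNA:CR32368 (3L:7915437-7915846, plus strand) was at 4.23, 3.57, 12.3 and 4.78 CPM in L854F and 2.39, 2.43, 2.5 and 2.6 CPM in JmjC, against 0.119, 0.25, 0.474 and 0.303 CPM in WT. L854F replicate 3 was the high sample, and the pooled log2 change was 3.74 (SE 0.44, adjusted p = 6.77e-05).

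CG11349 (3L:4473068-4475095, plus strand) was at 5.82, 8.2, 3.71 and 5.2 CPM in L854F and 2.45, 2.12, 3.11 and 1.24 CPM in JmjC, against 0.595, 0.375, 0.119 and 0.182 CPM in WT, a pooled log2 change of 3.46 (SE 0.40, adjusted p = 5.74e-05). CG11594 (3L:4022700-4026011, minus strand), a predicted carbohydrate kinase that overlaps Mul1 on the other strand, was at 2.02, 5.44, 3.85 and 4.23 CPM in L854F and 2.75, 2.8, 2.75 and 3.6 CPM in JmjC, against 0.298, 0.25, 0.712 and 0.546 CPM in WT. Its pooled log2 change was 2.89 (SE 0.33, adjusted p = 5.57e-05). Mutant and WT samples did not overlap, which the naming rule required of every shared rise and fall named. CG17224 (2L:3016441-3018308, minus strand), a uridine phosphorylase, was at 2.94, 1.94, 2.72 and 2.54 CPM in L854F and 3.06, 3.79, 3.66 and 3.91 CPM in JmjC, against 0.893, 0.313, 0.89 and 0.425 CPM in WT. It rose by 1.99 in L854F and 2.5 in JmjC on the log2 scale (pooled adjusted p = 7.09e-05).

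Among genes that fell in both alleles, Hsc70-1 (3L:13974061-13977761, plus strand), a cognate of the Hsp70 chaperones, was close to absent from the mutants. It was at 0.0612, 0, 0 and 0.121 CPM in L854F and 0.0612, 0.0622, 0.244 and 0 CPM in JmjC, against 3.99, 20.3, 3.44 and 24.0 CPM in WT. WT varied, with replicates 2 and 4 high, and its mean was 276 times that of L854F, where 3 counts were seen in all (95% exact Poisson interval 94.4 to 1340, counting error only). The pooled log2 change was -7.45 (SE 0.70, adjusted p = 8.26e-06).

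SoYb and pst, which fell in both alleles, are known for silencing and antiviral roles. SoYb (2L:9996706-10002736, minus strand), a Tudor-domain helicase of the germline piRNA pathway, was at 5.14, 4.57, 3.91 and 4.72 CPM in L854F and 2.57, 2.61, 1.83 and 2.17 CPM in JmjC, against 13.1, 15.5, 13.2 and 11.5 CPM in WT. It fell by 1.54 in L854F and 2.53 in JmjC on the log2 scale (pooled adjusted p = 1.23e-07), and the alleles differed (adjusted p = 0.000556). CG31875, which overlaps it on the same strand and could share its reads, was higher in both alleles. Pastrel (pst, 3L:7357275-7360263, minus strand), known in flies for resistance to picorna-like viruses, was at 12.2, 9.76, 16.3 and 12.6 CPM in L854F and 18.3, 20.6, 20.8 and 24.3 CPM in JmjC, against 59.8, 71.7, 76.9 and 81.5 CPM in WT. Its fall was 2.51 in L854F and 1.79 in JmjC on the log2 scale (pooled adjusted p = 3.07e-08), larger in L854F (adjusted p = 0.00277).

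Extracellular and enzyme genes were further shared falls. Peritrophin-A (X:20244647-20248203, plus strand), a chitin-binding protein, was at 0.551, 1.06, 0.928 and 1.03 CPM in L854F and 0.428, 0.684, 0.427 and 0.868 CPM in JmjC, against 4.64, 4.88, 5.1 and 4.0 CPM in WT, a pooled log2 change of -2.66 (SE 0.21, adjusted p = 1.28e-06). CG1299 (3L:4148696-4152473, plus strand), a predicted serine endopeptidase, was at 10.5, 6.51, 5.57 and 11.6 CPM in L854F and 13.9, 15.7, 14.6 and 19.0 CPM in JmjC, against 47.0, 39.8, 50 and 54.4 CPM in WT. The fall of CG1299 was 2.48 in L854F and 1.6 in JmjC on the log2 scale (pooled adjusted p = 7.11e-07). AOX1 (3R:15532137-15537292, minus strand), an aldehyde oxidase, was at 22.5, 17, 18 and 25.2 CPM in L854F and 15.2, 20.8, 14.5 and 19.5 CPM in JmjC, against 40.1, 38.1, 38.4 and 67.4 CPM in WT. WT replicate 4 was the highest, and the pooled log2 change was -1.27 (SE 0.16, adjusted p = 0.000105).

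Mlc2 (3R:30171438-30174551, minus strand), a myosin light chain of muscle, was at 0.98, 1.19, 1.79 and 3.39 CPM in L854F and 2.08, 1.8, 1.71 and 3.85 CPM in JmjC, against 9.94, 7.5, 9.55 and 17.4 CPM in WT, a pooled log2 change of -2.41 (SE 0.30, adjusted p = 9.99e-05). In bulk tissue fewer cells of a type and less RNA per cell cannot be told apart. CG17186 (3R:19875974-19877514, minus strand) was at 9.37, 12.8, 16.2 and 9.2 CPM in L854F and 7.77, 7.71, 6.65 and 8.31 CPM in JmjC, against 41.1, 37.1, 37.4 and 36.3 CPM in WT, a pooled log2 change of -2.0 (SE 0.12, adjusted p = 1.49e-07). Of the noncoding RNAs, lncRNA:CR45242 (3L:10269482-10270353, plus strand) was at 0.857, 2.75, 2.59 and 1.21 CPM in L854F and 5.63, 5.16, 4.58 and 6.88 CPM in JmjC, against 19.7, 19.8, 20.5 and 22.1 CPM in WT. Its fall was larger in L854F (3.48) than in JmjC (1.88) on the log2 scale (adjusted p of the difference = 0.00081). The unplaced lncRNA:CR45484 was at 0.429, 0.25, 0.0663 and 0.363 CPM in L854F and 0.795, 0.373, 0.366 and 0.62 CPM in JmjC, against 11.7, 2.5, 4.98 and 3.76 CPM in WT. Its pooled log2 change was -3.85 (SE 0.41, adjusted p = 2.49e-05).

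**Figure D2:**
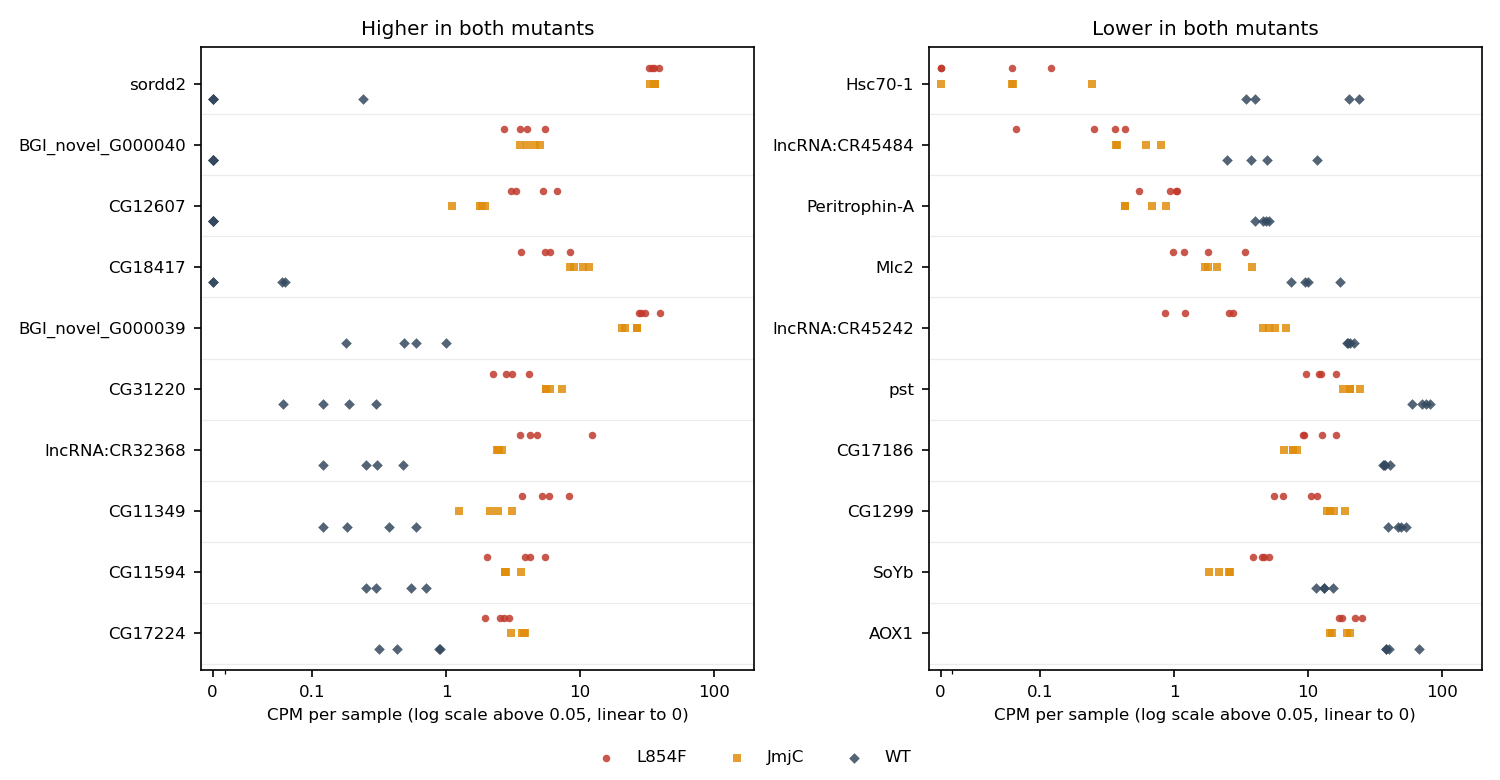
Level in each sample (points, CPM on an axis that is logarithmic above 0.05 CPM and linear below) of the named genes that changed in the same direction in both alleles, with L854F, JmjC and WT in that order. The genes shown were chosen so that no mutant point overlaps a WT point. WT samples of Hsc70-1 spread between 3.44 and 24.0 CPM.

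Among cell division genes every pooled call was upward. Of 60 tested genes of the spindle, cytokinesis and the cell cycle, 15 were higher in the mutants, none was lower (25.0% called, against 11.0% of all genes) and 45 did not pass. At an unadjusted p of 0.05 the counts were 27 higher and 2 lower, and DESeq2 gave 17 and 0. The list's median log2 change was 0.0707, with 5 calls in L854F, all higher, and 24 higher and 1 lower in JmjC. Borealin (borr), a subunit of the chromosomal passenger complex, was at 24.3, 22.5, 25.3 and 20.4 CPM in L854F and 33.0, 31.1, 31.3 and 30.5 CPM in JmjC, against 18, 17.3, 16.2 and 18.3 CPM in WT. Its pooled log2 change was 0.63 (SE 0.06, adjusted p = 1.75e-05), and the 3 groups did not overlap. Fizzy (fzy), the activator of the anaphase-promoting complex, was at 39.0, 41.5, 37.3 and 40.4 CPM in L854F and 46.2, 44.7, 45.9 and 44.7 CPM in JmjC, against 34.1, 31.4, 36.8 and 33.0 CPM in WT (log2 change 0.32, adjusted p = 0.000639). Cdk1, the mitotic kinase, ranged over 40.1 to 47.1 CPM in L854F, 53.5 to 65.0 CPM in JmjC and 34.5 to 40.9 CPM in WT (0.47, adjusted p = 0.000479). Pebble (pbl), a cytokinesis exchange factor, ranged over 58.6 to 64.0 CPM in L854F, 76.5 to 85.5 CPM in JmjC and 52.2 to 58.9 CPM in WT (0.32, adjusted p = 0.000578), and its call was lost with the mutants as a single group (adjusted p = 0.0827). In that fit 7 genes of the list passed in place of 15. Replication members of the list, named after their values were seen, did not pass, with pooled log2 changes of -0.10 for Mcm7, -0.08 for Mcm6, -0.03 for Mcm5, -0.02 for Mcm3 and 0.04 for PCNA.

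Beside this, neuroblast markers moved little: 1 of 27 was called (3.7%, against 11.0% of all genes). It was Miranda (mira), an adaptor that segregates cell fate determinants in dividing neuroblasts, which overlaps Hs6st on the same strand. Its level was 120, 124, 115 and 108 CPM in L854F and 106, 107, 85.6 and 91.2 CPM in JmjC, against 141, 143, 130 and 152 CPM in WT (log2 change -0.41, adjusted p = 0.000763). It was thus lower while the division genes above were higher.

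Of 33 tested neuropeptide genes 14 fell, 1 rose and 18 did not pass. The share called was 45.5%, against 11.0% of all genes, and the list's median log2 change was -0.276 pooled, -0.169 in L854F and -0.292 in JmjC. In L854F 6 were lower and 1 higher, in JmjC 13 lower, and 3 fell in both alleles. All 44 joined members summed to 2150 to 2360 CPM in L854F, 1900 to 2470 CPM in JmjC and 2430 to 2640 CPM in WT. By this sum L854F lay below WT and JmjC overlapped it. Capa, the precursor of the capability peptides that act on the renal tubules, was at 107, 98.0, 111 and 88.1 CPM in L854F and 117, 115, 109 and 127 CPM in JmjC, against 158, 157, 140 and 174 CPM in WT (log2 change -0.53, adjusted p = 0.00012). CCAP, a peptide of the moulting sequence, was at 26.3, 28.5, 31.4 and 28.3 CPM in L854F and 25.6, 26.4, 26.1 and 29.3 CPM in JmjC, against 37.6, 38.7, 33.7 and 35.7 CPM in WT (-0.40, adjusted p = 0.00048). FMRFa, which modulates neuromuscular transmission, was at 78.4, 86.9, 79.4 and 79.8 CPM in L854F and 86.4, 97.4, 72.5 and 98.6 CPM in JmjC, against 114, 108, 120 and 124 CPM in WT (-0.46, adjusted p = 0.000763). In each of these 3 genes every mutant sample lay below every WT sample.

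Nplp1, a peptide precursor of the Apterous neurons, was at 623, 704, 613 and 631 CPM in L854F and 529, 532, 460 and 537 CPM in JmjC, against 705, 738, 664 and 712 CPM in WT (-0.29, adjusted p = 0.00284). L854F and WT overlapped, and the call was lost with the mutants as a single group (adjusted p = 0.105). In that fit 5 of the list fell in place of 14. Of 15 genes of peptide processing and dense-core vesicles none was called by edgeR or DESeq2, with 1 lower at an unadjusted p of 0.05. Of the 16 neuron markers 1 was called in each direction (12.5%, against 11.0% of all genes).

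**Figure D3:**
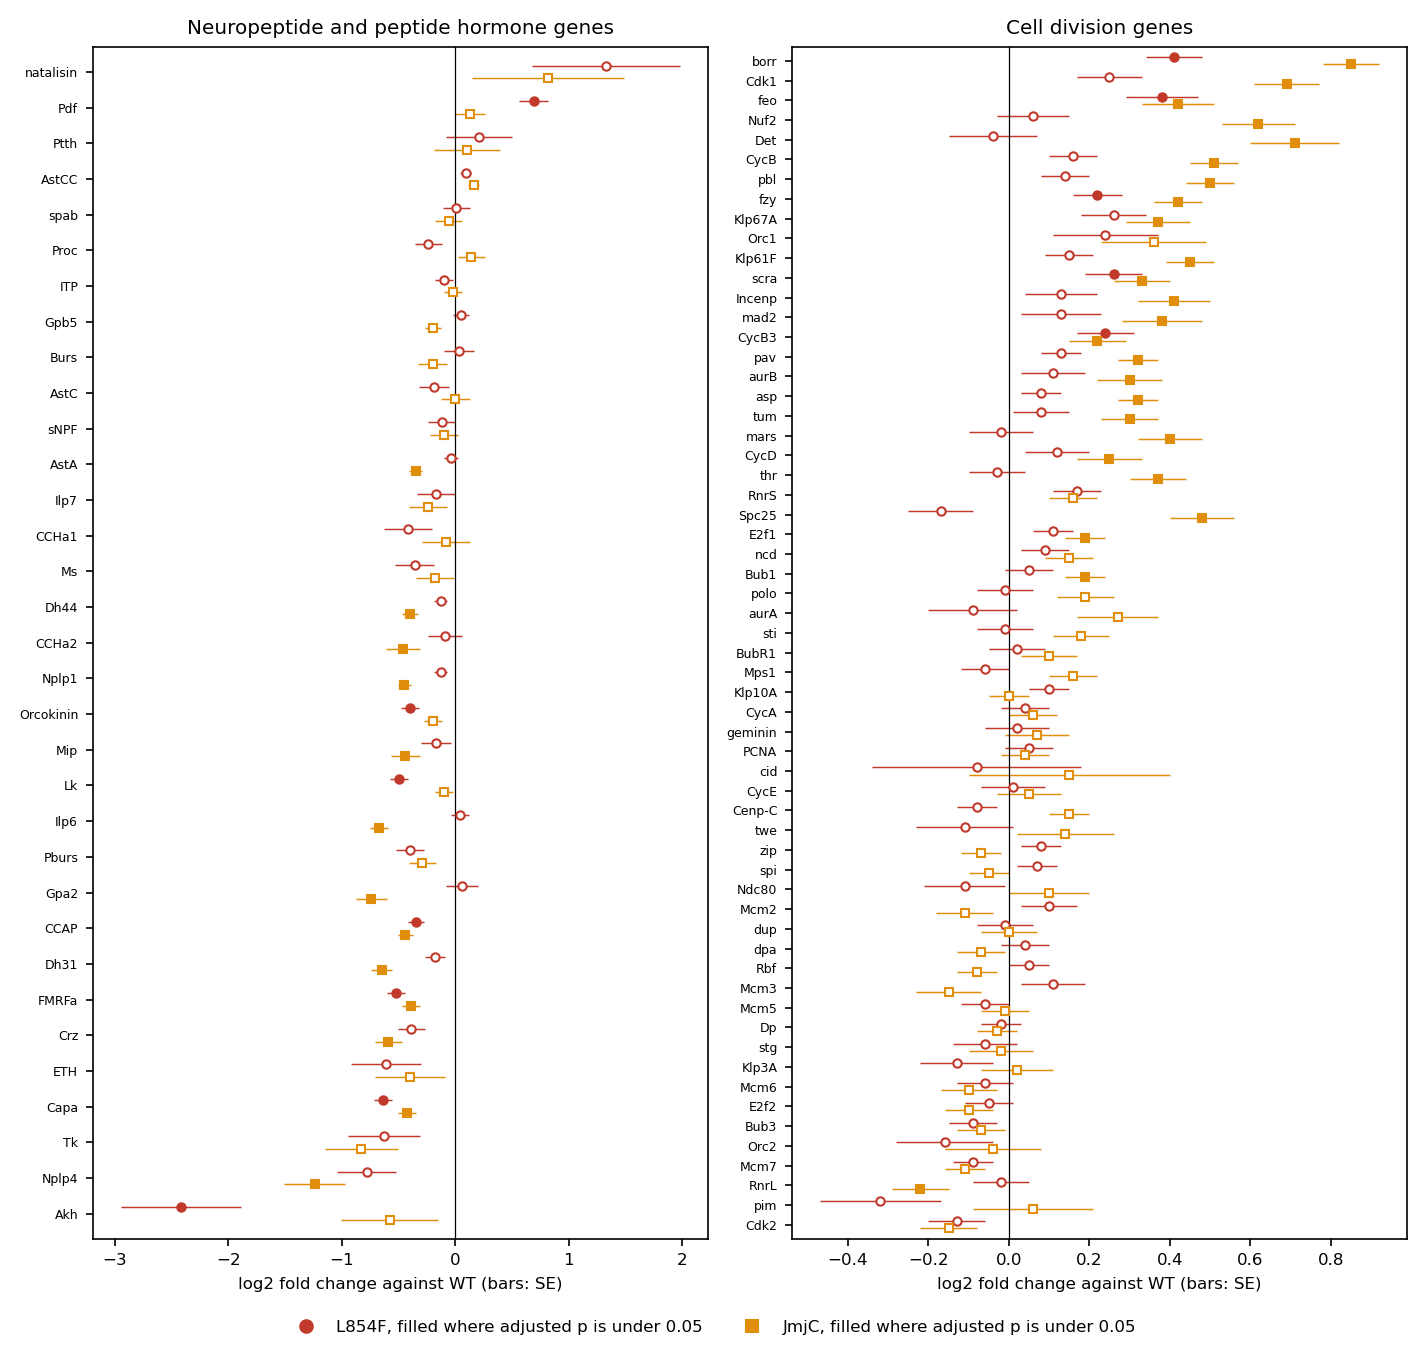
Log2 fold change of each tested neuropeptide gene and cell division gene in L854F and in JmjC against WT, with bars for the standard error and filled points where that allele passed an adjusted p of 0.05. Filled neuropeptide points lie below 0 apart from 1 in L854F, and filled division points lie above it apart from 1 in JmjC.

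Heat shock proteins and chaperones gave 5 genes higher and 1 lower among 23 tested (26.1% called, against 11.0% of all genes). The list's median log2 change was 0.0318 in L854F and 0.407 in JmjC. Hsp67Ba, a small heat shock protein, was at 690, 658, 676 and 604 CPM in L854F and 631, 598, 639 and 581 CPM in JmjC, against 393, 348, 375 and 314 CPM in WT (log2 change 0.83, adjusted p = 8.46e-07). Hsp23 ranged over 3060 to 3420 CPM in L854F, 2280 to 2740 CPM in JmjC and 1710 to 2090 CPM in WT (0.55, adjusted p = 0.00012). Both were higher in every mutant sample than in any WT sample. Hsp22, which overlaps CG4456 on the same strand, ranged over 54.4 to 79.6 CPM in L854F, 93.3 to 155 CPM in JmjC and 26.5 to 69.5 CPM in WT (1.13, adjusted p = 0.00528, and 0.0643 with the mutants as a single group, where 3 of the list were higher). The member that fell was Hsc70-1, described above.

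Noncoding and transposon-like transcripts were called often, mostly upward. Of 245 long noncoding RNAs 40 were higher and 11 lower (20.8% called, against 11.0% of all genes). Their median log2 change was 0.199, and 18 rose and 4 fell in both alleles. The median was 0.0589 in L854F, with 22 higher and 5 lower, and 0.368 in JmjC, with 66 higher and 11 lower. With the mutants as a single group 20 were higher. LncRNA:CR45471 ranged over 14.1 to 18.9 CPM in L854F, 44.2 to 47.8 CPM in JmjC and 8.9 to 12 CPM in WT (log2 change 1.42, adjusted p = 2.37e-07). LncRNA:CR44440, on chromosome 4, ranged over 0.98 to 3.65 CPM in L854F, 7.65 to 9.88 CPM in JmjC and 0.534 to 0.655 CPM in WT (2.88, adjusted p = 2.18e-05). Both rose in each allele and were higher in JmjC than in L854F (adjusted p = 1.14e-07 and 0.000143).

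Among 117 tested transcripts without a symbol, 61 had a best protein match in the authors' deposited table that named a gag or pol protein, a polyprotein, a transposase, a transposon or a reverse transcriptase. These words were chosen after the values were seen, and copies of 1 element can share reads. Of the 61, 30 were higher and 3 lower (54.1% called, against 11.0% of all genes), and 12 rose in both alleles. The changes were larger in JmjC, with a median of 0.858 and 36 higher and 1 lower, than in L854F, with a median of 0.235 and 13 higher and 5 lower. Summed, they were at 1380 to 1840 CPM in L854F, 2320 to 2630 CPM in JmjC and 1350 to 1500 CPM in WT. Only JmjC samples stood clear of WT by this sum, and with the mutants as a single group 13 were higher. The other 56 transcripts without a symbol gave 17 higher and 3 lower (35.7% called).

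Genes of the germline and the piRNA pathway, which silences transposons, moved both ways. Of 37 tested, 7 were higher and 4 lower (29.7% called, against 11.0% of all genes). The 3 that fell in both alleles were the piRNA factors SoYb, krimp and BoYb, the last named after its values were seen. Krimper (krimp), a Tudor-domain scaffold of the nuage, was at 1.53, 2.0, 2.32 and 2.42 CPM in L854F and 3.73, 3.42, 2.81 and 3.78 CPM in JmjC, against 5.12, 8.25, 5.81 and 5.46 CPM in WT (log2 change -1.21, adjusted p = 0.000226). Every mutant sample was below WT. The higher members were called through JmjC: bag of marbles (bam), a differentiation factor of the germline, was at 1.1, 1.13, 0.663 and 0.847 CPM in L854F and 11.6, 9.02, 9.7 and 11.3 CPM in JmjC, against 1.43, 1.13, 1.13 and 1.76 CPM in WT. RpS5b, a ribosomal protein paralog of the germline, ranged over 8.65 to 15.5 CPM in L854F, 34.5 to 37.3 CPM in JmjC and 9.23 to 12.3 CPM in WT. With the mutants as a single group none of the 7 passed (adjusted p = 0.186 for RpS5b and 0.207 for bam), where edgeR with alleles apart gave 12 higher at an unadjusted p of 0.05 and DESeq2 gave 8. The nerve cord itself holds no germ cells. Beside this, 20 testis markers summed to 107 to 111 CPM in L854F, 119 to 137 in JmjC and 95 to 105 in WT. Of the 7 tested, 3 were higher (42.9% called, against 11.0% of all genes). These were bam, already counted above, CycB3 and TrxT. The call of TrxT was lost in 15 alternatives and that of CycB3 in 3. The part of the testis markers in these results was not tested.

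Of 29 amino acid transporters 6 were lower, none was higher (20.7% called, against 11.0% of all genes) and 23 did not pass, with a median log2 change of -0.0693. At an unadjusted p of 0.05, 7 were lower and 2 higher, and DESeq2 called 6 lower and 1 higher. Genderblind (gb), a glial cystine and glutamate exchanger, was at 93.1, 97.1, 93.3 and 99.5 CPM in L854F and 87.7, 90.5, 83.3 and 88.7 CPM in JmjC, against 104, 115, 110 and 111 CPM in WT (log2 change -0.27, adjusted p = 0.000611). Pathetic (path), a transporter needed for growth of large dendrites, ranged over 380.0 to 472 CPM in L854F, 466 to 578 CPM in JmjC and 550.0 to 660.0 CPM in WT (-0.42, adjusted p = 0.0018). Both fell in each allele, gb with no overlap and path with JmjC overlapping WT. CG1607 changed by -0.35 (adjusted p = 0.000763) and CG5535 by -0.28 (adjusted p = 0.0171). Those 2 calls were lost with the mutants as a single group (adjusted p = 0.0556 each), and CG5535 also lost its call without WT replicate 4 (adjusted p = 0.0644). The list's count fell to 2 in the single-group fit and to 3 without WT replicate 4.

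Genes of oxidative defence and iron storage gave 4 lower and 1 higher of 22 (22.7% called, against 11.0% of all genes). MsrA, which repairs oxidised methionine, was at 37.2, 44.0, 37.4 and 39.3 CPM in L854F and 40.0, 40.9, 43.4 and 40.9 CPM in JmjC, against 68.8, 63.2, 73.7 and 61.8 CPM in WT (log2 change -0.73, adjusted p = 1.5e-06). Fer2LCH, the ferritin light chain, was at 510.0, 509, 540.0 and 490.0 CPM in L854F and 434, 447, 439 and 440.0 CPM in JmjC, against 603, 655, 592 and 654 CPM in WT (-0.40, adjusted p = 2.56e-05). No mutant sample reached WT in either gene. The heavy chain Fer1HCH overlaps Fer2LCH on the other strand, and the strand setting of the counting is not given in the sources used here. It ranged over 708 to 797 CPM in L854F, 669 to 727 CPM in JmjC and 802 to 857 CPM in WT (-0.21, adjusted p = 0.00825). Catalase (Cat) changed by -0.23 (adjusted p = 0.0136), which was lost without WT replicate 3 (0.0553) and with the mutants as a single group (0.114).

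Among odorant-binding proteins and chemoreceptors 4 were higher and 1 lower of 23 (21.7% called, against 11.0% of all genes). Or63a, an odorant receptor, ranged over 0.796 to 1.69 CPM in L854F, 2.26 to 2.87 CPM in JmjC and 0.0593 to 0.125 CPM in WT (log2 change 4.23, adjusted p = 2.26e-06). It was higher in every mutant sample, at low levels. Methuselah-type receptors gave 3 higher and 1 lower of 11 (36.4% called, against 11.0% of all genes). Methuselah (mth), known for its effect on life span, ranged over 59.2 to 79.3 CPM in L854F, 91.7 to 103 CPM in JmjC and 45.7 to 58.3 CPM in WT (0.62, adjusted p = 0.00019). Mthl8 was at 73.9, 66.1, 62.1 and 80.0 CPM in L854F, at 0, 0, 0 and 0.062 CPM in JmjC, and at 0 in WT. It was present in L854F and at the limit of detection in the other groups, at least 388-fold higher in L854F than in WT, and its pooled call (adjusted p = 0.0168) ended without JmjC replicate 4 (adjusted p = 1.0) and with the mutants as a single group (0.137).

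Of 38 ion channels 2 were higher and 4 lower (15.8% called, against 11.0% of all genes). The pickpocket channel gene ppk29, which in flies acts in pheromone sensing, was at 19.9, 17, 15 and 17.6 CPM in L854F and 48.8, 49.8, 51.4 and 43.9 CPM in JmjC, against 10, 12.1, 8.78 and 7.71 CPM in WT (log2 change 1.59, adjusted p = 4.96e-07). The 3 groups were fully apart. Among the channels called lower were Irk1, Irk2 and unc79. Their calls were lost with the mutants as a single group (adjusted p = 0.177, 0.567 and 0.0948). Of 54 peptide and amine receptors 2 were higher and 2 lower (7.41% called). Octalpha2R, an octopamine receptor, ranged over 80.2 to 92.2 CPM in L854F, 98.5 to 99.4 CPM in JmjC and 64.5 to 74.1 CPM in WT (0.42, adjusted p = 0.000104). TkR99D, a tachykinin receptor, ranged over 39.9 to 42.2 CPM in L854F, 75.5 to 89.1 CPM in JmjC and 35.2 to 36.1 CPM in WT (0.70, adjusted p = 7.66e-07, and 0.0988 with the mutants as a single group). The 2 receptors that fell were 5-HT2B and Lkr. Both calls were lost with the mutants as a single group (adjusted p = 0.0643 and 0.296).

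Of 29 transmitter receptors 3 were higher and 2 lower (17.2% called, against 11.0% of all genes). The other neuronal lists were called at 10% or less. These were 1 higher and 2 lower of 42 synaptic vesicle and active zone genes (7.14%), 1 higher of 35 synaptic adhesion genes (2.86%), 2 lower of 32 dpr and DIP recognition genes (6.25%), 1 lower of 42 axon guidance genes (2.38%), and 3 higher and 1 lower of 40 neuronal identity factors and Hox genes (10%). Dopa decarboxylase (Ddc), listed with the vesicle genes, makes dopamine and serotonin. It ranged over 72.8 to 82.4 CPM in L854F, 61.8 to 74.6 CPM in JmjC and 86.3 to 102 CPM in WT (log2 change -0.36, adjusted p = 0.0016). It fell in both alleles.

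Housekeeping lists had a lower share called than the 11.0% over all genes. Of 87 cytosolic ribosomal proteins 2 were higher, of 73 mitochondrial ribosomal proteins 1 was higher and 2 lower, and of 13 glycolytic genes 1 was lower. None of 65 respiratory chain genes and none of 35 proteasome subunits passed in edgeR. At an unadjusted p of 0.05 the respiratory genes gave 2 in each direction and the proteasome 2 higher and 1 lower, and DESeq2 called 1 respiratory gene lower and no proteasome gene. The chromatin lists were also below the share over all genes. Of 41 genes listed as H3 lysine 4 methyltransferases, lysine demethylases and Sin3A or HDAC corepressors, 1 was higher and 1 lower (4.88% called). These were HSPBAP1 and JMJD7. Neither carried an ontology term in the authors' deposited table, so their place in these classes rests on the list alone. The call of HSPBAP1 was lost in 13 alternatives and that of JMJD7 in 3. Of 21 Polycomb genes 1 was lower (4.76%). Ecdysone response genes gave 1 in each direction of 26 (7.69%), and immune genes of the IMD pathway 2 higher of 18 (11.1%). Cytochromes P450 gave 3 in each direction of 40 (15%), glutathione and UDP-glycosyl transferases 1 higher and 3 lower of 35 (11.4%), and serine proteases 1 lower of 4.

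Genes of the cuticle gave 1 higher and 3 lower of 24 (16.7% called), and chitin-related genes 3 in each direction of 25 (24.0% called). The share over all genes was 11.0%. Cda5, a chitin deacetylase, ranged over 57.8 to 67.8 CPM in L854F, 84.8 to 89.5 CPM in JmjC and 38.1 to 47.8 CPM in WT (log2 change 0.77, adjusted p = 1.93e-06). Muc14A, a mucin, ranged over 6.26 to 11.5 CPM in L854F, 19.9 to 25.1 CPM in JmjC and 2.8 to 5.0 CPM in WT (1.83, adjusted p = 2.31e-05). Both rose in each allele, while Peritrophin-A, above, fell.

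Markers of cells attached to or around the nerve cord were among the calls. Hemocyte genes gave 3 lower and 1 higher of 15 (26.7% called, against 11.0% of all genes). Several of them also make basement membrane in other cells. The hemocyte sums were 455 to 474 CPM in L854F, 359 to 428 CPM in JmjC and 498 to 559 CPM in WT. Col4a1, a collagen IV chain, was at 51.5, 68.8, 51.6 and 62.7 CPM in L854F and 29.4, 29.2, 28.3 and 29.8 CPM in JmjC, against 74.0, 75.2, 90.7 and 102 CPM in WT (log2 change -1.05, adjusted p = 4.61e-06). SPARC, which binds collagen IV, was at 32.5, 31.2, 39.5 and 29.6 CPM in L854F and 35.2, 36.1, 40.5 and 37.6 CPM in JmjC, against 57.0, 62.2, 54.0 and 63.3 CPM in WT (-0.75, adjusted p = 1.06e-05). The second collagen IV chain, viking (vkg), ranged over 37.9 to 60.3 CPM in L854F, 22.9 to 43.2 CPM in JmjC and 62.2 to 96.4 CPM in WT (-0.95, adjusted p = 0.00197). All 3 basement membrane genes were lower in every mutant sample than in any WT sample. PPO3 was the member that rose, and it lost its call with the mutants as a single group (log2 change 1.96, adjusted p = 0.154). Over the 15 tested genes the median log2 change was -0.129, with 6 changes above 0 and 9 below.

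Muscle genes gave 6 lower and 1 higher of 22 (31.8% called, against 11.0% of all genes), with a median log2 change of -0.467. They summed to 1320 to 1490 CPM in L854F, 1410 to 1520 CPM in JmjC and 1510 to 1690 CPM in WT. WT replicate 4 carried part of the fall: without it the median was -0.157 and 3 were lower. With the mutants as a single group 3 were lower as well. TpnC47D, a troponin C, was at 1.29, 0.813, 0.995 and 1.45 CPM in L854F and 0.55, 0.809, 1.1 and 1.12 CPM in JmjC, against 2.98, 2.63, 1.9 and 2.85 CPM in WT (log2 change -1.35, adjusted p = 0.0013). It fell in both alleles with no overlap, as did Mlc2, which was named on that condition. TpnC4, another troponin C, was the member that rose (0.63, adjusted p = 0.00214, and 0.073 with the mutants as a single group).

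Glial genes gave 5 lower and 2 higher of 26 (26.9% called, against 11.0% of all genes). The count was 9 lower without JmjC replicate 4 and 2 lower with the mutants as a single group. Viking, also counted with the hemocyte genes above, was among the 5 lower. Astrocytic leucine-rich repeat molecule (alrm), an astrocyte gene that overlaps Fur1 on the same strand, was at 217, 262, 232 and 324 CPM in L854F and 679, 708, 701 and 776 CPM in JmjC, against 196, 219, 242 and 258 CPM in WT. It was high in JmjC alone, and its pooled log2 change of 0.91 was lost with the mutants as a single group (adjusted p = 0.122). Mdr65, a transporter of the blood-brain barrier, ranged over 209 to 276 CPM in L854F, 204 to 261 CPM in JmjC and 269 to 346 CPM in WT (-0.45, adjusted p = 0.0026).

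Fat body genes gave 1 higher and 2 lower of 16 (18.8% called, against 11.0% of all genes). They summed to 1810 to 2210 CPM in L854F, 2410 to 2650 CPM in JmjC and 2060 to 2370 CPM in WT. Imaginal disc and eye genes gave 1 in each direction of 13 (15.4% called), with sums of 338 to 375, 355 to 379 and 330 to 369 CPM in the same order. Salivary gland genes (9 tested) and tracheal genes (10 tested) had no call by edgeR or DESeq2, with 1 salivary gene higher and 3 tracheal genes lower at an unadjusted p of 0.05. Their sums were 44.4 to 62.5 and 414 to 484 CPM in L854F, 50.7 to 104 and 365 to 437 CPM in JmjC, and 44.7 to 62.6 and 429 to 515 CPM in WT. Midgut genes passed the filter in 2 cases, 1 of them called lower, and summed to 4.0 to 5.21 CPM in L854F, 2.17 to 57.9 CPM in JmjC, where replicate 3 alone was high, and 4.06 to 5.87 CPM in WT. The part of these cell types in the results was not tested.

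**Figure D4:**
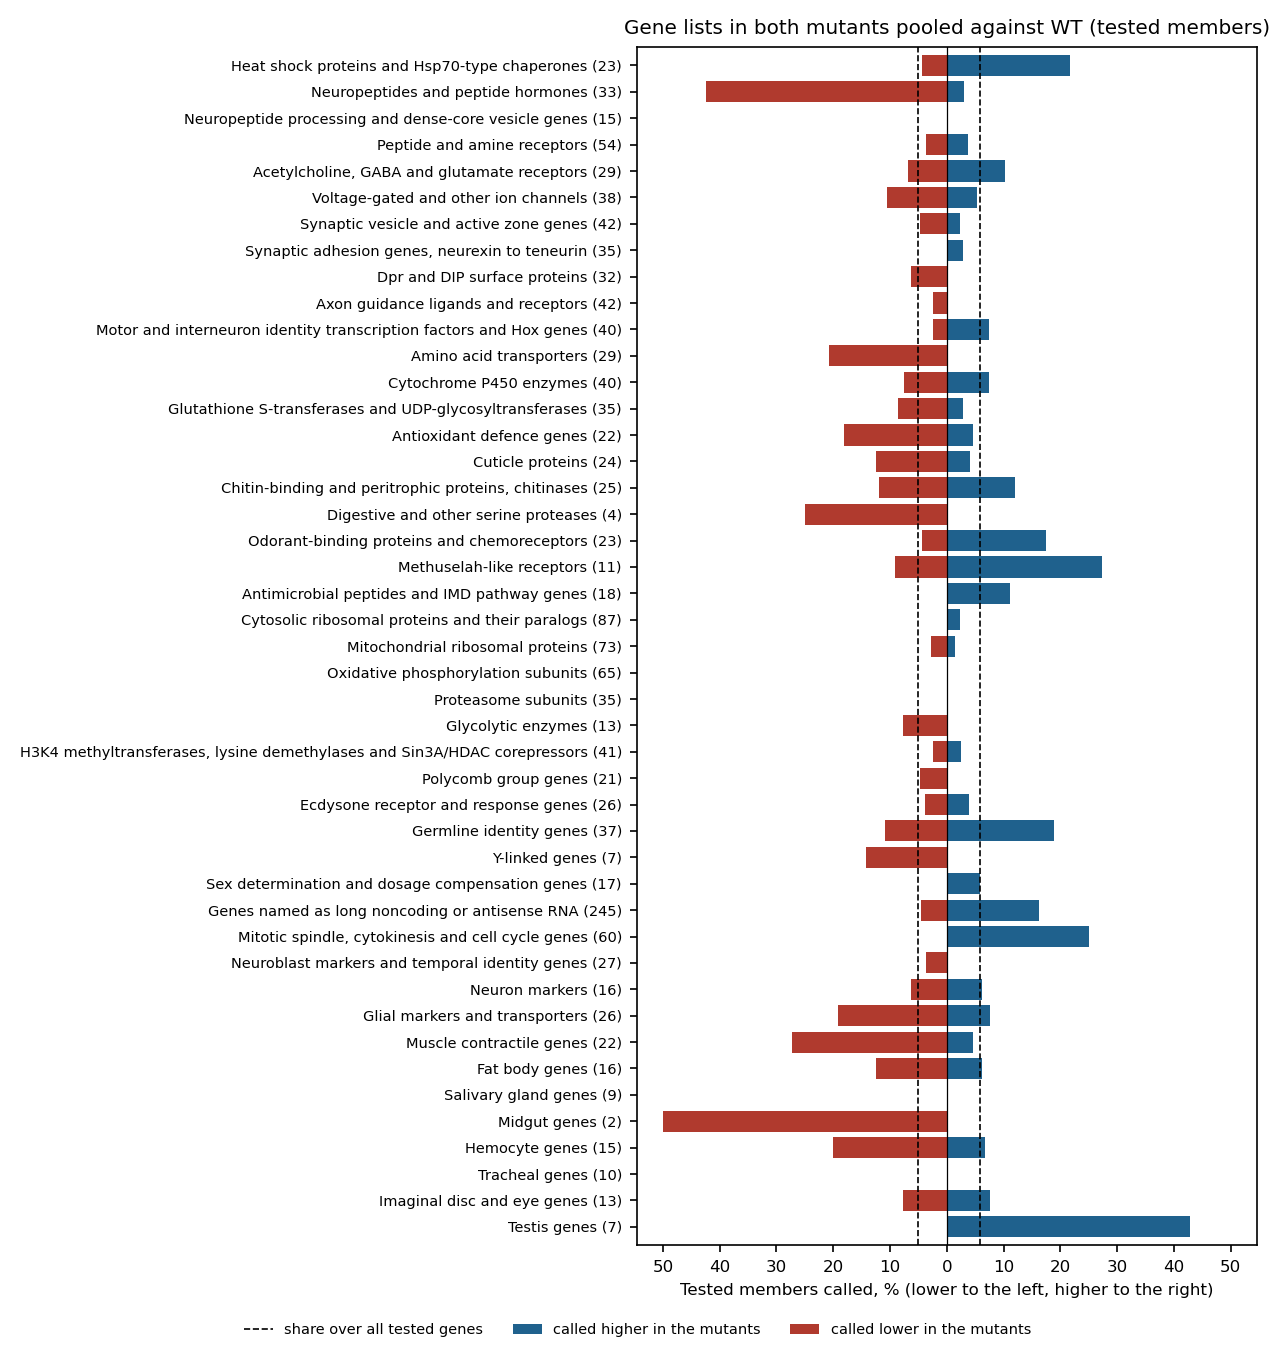
Share of tested genes called higher (right) and lower (left) in the pooled comparison for each gene list, in percent of the list's tested members, with dashed lines for the share over all tested genes, 5.88% higher and 5.15% lower. The neuropeptide bar passes the lower line and the cell cycle bar the higher line, and the bars of ribosomal, respiratory and proteasome genes stay within both.

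Opposite changes were called in 28 genes (0.299%), 9 higher in L854F (0.0962%) and 19 lower in L854F (0.203%). Both comparisons use the same WT samples, which favours equal signs. The count is therefore not to be set against the 261 shared changes as a measure of likeness between alleles. The count of 28 rests on values near the threshold, and was 18 without WT replicate 3 and 45 with DESeq2. Nlg1 (3R:7658247-7694874, plus strand), a neuroligin that organises neuromuscular synapses, was at 8.39, 6.94, 12.5 and 5.93 CPM in L854F and 1.65, 1.74, 1.71 and 2.73 CPM in JmjC, against 3.1, 3.38, 3.68 and 3.76 CPM in WT. It rose by 1.28 in L854F (adjusted p = 0.00337) and fell by 0.83 in JmjC (adjusted p = 0.0329), and no 2 groups overlapped. The fall in JmjC was lost without JmjC replicate 1, 2 or 3 or WT replicate 2, 3 or 4 (adjusted p = 0.0566 to 0.0917).

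Cyp12d1-p (2R:11117225-11121884, minus strand), a mitochondrial cytochrome P450 induced by xenobiotics, has a near-identical neighbouring copy, Cyp12d1-d, so its reads are uncertain. It was at 7.23, 4.07, 2.39 and 7.93 CPM in L854F and 0.0612, 0.187, 0.061 and 0.186 CPM in JmjC, against 0.655, 0.563, 0.534 and 0.425 CPM in WT. The rise in L854F was 3.3 (adjusted p = 9.45e-05) and the change in JmjC was -2.08 (adjusted p = 0.0273), which was lost without JmjC replicate 1 or 3 or WT replicate 1 or 2 (adjusted p = 0.0503 to 0.0748). BGI_novel_G000097, with a gag-pol protein as its best match in the authors' deposited table, was at 116, 85.5, 96.4 and 119 CPM in L854F and 13.8, 17.6, 15.4 and 11.7 CPM in JmjC, against 20, 18.9, 23.6 and 20.8 CPM in WT. It rose by 2.32 in L854F (adjusted p = 3.73e-08) and changed by -0.51 in JmjC (adjusted p = 0.017), a call lost without JmjC replicate 4 (0.0505) or WT replicate 3 (0.0514).

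Smaller opposite changes had the same order. CG8012 was at 14.3, 11.7, 12.9 and 13.8 CPM in L854F and 4.89, 5.29, 6.47 and 5.27 CPM in JmjC, against 11.7, 8.25, 6.52 and 8.43 CPM in WT, and L854F touched WT replicate 1. Its rise in L854F (0.59, adjusted p = 0.037) was lost with L854F fitted alone and without any of L854F replicates 1, 3 and 4 and WT replicates 2, 3 and 4 (adjusted p = 0.0563 to 0.105). Hng3, a MADF-domain DNA-binding protein, was at 22.2, 27.3, 24.8 and 21.7 CPM in L854F and 14.3, 15.1, 14.6 and 13.6 CPM in JmjC, against 19.6, 18.2, 18.7 and 21.1 CPM in WT. The rise of hng3 in L854F (0.30, adjusted p = 0.0431) was lost in 11 alternatives, among them leaving out L854F replicate 2 or 3, JmjC replicate 1 or 2 or WT replicate 1, 2 or 3 (adjusted p = 0.0501 to 0.121). LncRNA:CR33938 was at 127, 124, 118 and 136 CPM in L854F and 90.2, 83.9, 86.6 and 71.4 CPM in JmjC, against 107, 94.6, 104 and 103 CPM in WT, and its rise in L854F (0.31, adjusted p = 0.019) was lost without L854F replicate 1 or 4 or WT replicate 2 (adjusted p = 0.0511 to 0.0652).

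On the other side, CG12716 (X:12974683-12976231, minus strand), which carries a chorion term in the authors' deposited table, was at 0.49, 0.438, 0.133 and 0.181 CPM in L854F and 9.24, 13.4, 9.52 and 14.1 CPM in JmjC, against 1.49, 1.19, 2.13 and 1.33 CPM in WT. It fell by 2.27 in L854F (adjusted p = 0.00147) and rose by 2.9 in JmjC (adjusted p = 2.26e-06), and no 2 groups overlapped. Or13a, an odorant receptor gene on the X chromosome, was at 1.22, 0.813, 1.13 and 0.786 CPM in L854F and 4.04, 3.73, 3.29 and 3.35 CPM in JmjC, against 1.67, 1.69, 2.08 and 1.88 CPM in WT. Its change in L854F (-0.88, adjusted p = 0.0257) was lost with L854F fitted alone and without L854F replicate 2 or 4 or WT replicate 3 or 4 (adjusted p = 0.0599 to 0.0751), and its rise in JmjC was 0.98 (adjusted p = 0.00255).

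The other opposite genes named by the rule are on the Y chromosome. FDY (Y:3022289-3024024, plus strand), a Y-linked copy of an autosomal gene, was at 0.0612, 1.44, 0.265 and 0.907 CPM in L854F and 20.4, 17.7, 14.5 and 18.5 CPM in JmjC, against 6.61, 4.5, 6.05 and 4.91 CPM in WT. It fell by 3.03 in L854F (adjusted p = 0.0003) and rose by 1.68 in JmjC (adjusted p = 0.000921). The Su(Ste) repeats, near-identical Y copies that silence Stellate in testis, share reads, so single copies are uncertain. Su(Ste):CR41533 was at 0.49, 0.125, 0 and 0.605 CPM in L854F and 32.7, 30.1, 13.8 and 33.1 CPM in JmjC, against 5.78, 5.69, 6.64 and 13.8 CPM in WT. Su(Ste):CR42407 and Su(Ste):CR42422 had the same order, with log2 changes of -3.39 and -2.77 in L854F and 2.09 and 1.32 in JmjC. The JmjC call of Su(Ste):CR42422 was lost with DESeq2 (adjusted p = 0.0736).

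Of the 14 Y-linked genes deposited, 7 were tested, 5 of them opposite in the alleles, and their sums were 1.35 to 8.7 CPM in L854F, 77.6 to 112 CPM in JmjC and 23.8 to 40.7 CPM in WT. Su(Ste):CR41533 was the 1 pooled call and shows a limit of averaging: its pooled log2 change was -1.43 while its mean was 13.9 CPM in the mutants and 7.99 CPM in WT. Of 17 sex determination and dosage compensation genes 1 was higher. It was the dosage compensation RNA roX2, at 18.3, 21.5, 16.2 and 20.4 CPM in L854F and 29.3, 25.6, 28.1 and 29.1 CPM in JmjC, against 20.7, 12.8, 17.4 and 19.8 CPM in WT. L854F overlapped WT, and the call of roX2 was lost in 9 alternatives. With the mutants as a single group its adjusted p was 0.219. RoX1, its partner, was at 779, 892, 680.0 and 772 CPM in L854F and 1010.0, 906, 784 and 954 CPM in JmjC, against 863, 552, 728 and 791 CPM in WT, and was not called. Y-linked levels were thus low in L854F and high in JmjC. The sex make-up of the samples and the genotype of the Y chromosome are not stated, and neither can be told apart from the kdm5 alleles.

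**Figure D5:**
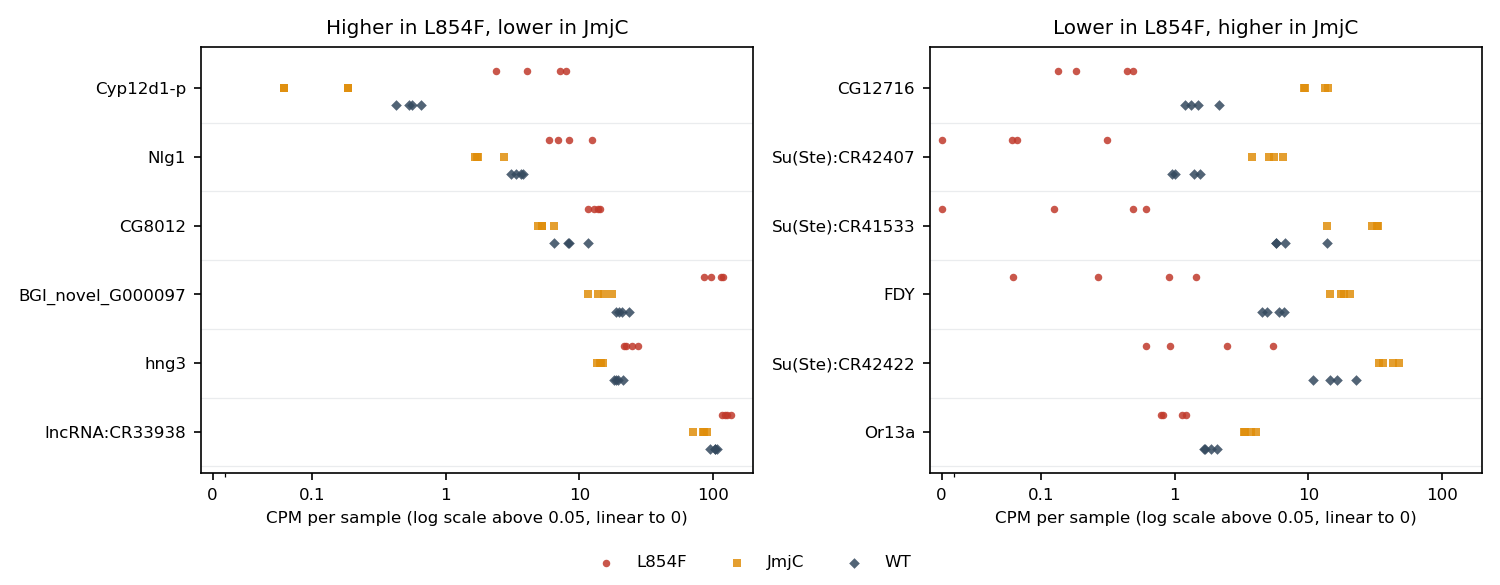
Level in each sample (points, CPM on an axis that is logarithmic above 0.05 CPM and linear below) of the named genes called in both alleles in opposite directions, with L854F, JmjC and WT in that order. In the left panel L854F is highest and JmjC lowest, and in the right panel JmjC is highest and L854F lowest, with WT between; Su(Ste):CR41533 at 13.8 CPM in WT replicate 4 meets the lowest JmjC sample.

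Pooling also called 34 genes that neither allele passed alone, 14 higher and 20 lower. The 4 with the smallest adjusted p among those higher were Cap-G (log2 change 0.17, adjusted p = 0.0328), RIC-3 (0.13, adjusted p = 0.0355), TfIIFalpha (0.13, adjusted p = 0.0401) and l(2)41Ab (0.31, adjusted p = 0.0416). Cap-G is a condensin subunit and RIC-3 a chaperone of acetylcholine receptors. Among those lower they were Sur (-0.42, adjusted p = 0.0288), O-fut1 (-0.17, adjusted p = 0.0291), Pld (-0.27, adjusted p = 0.0321) and CG9451 (-0.42, adjusted p = 0.0331). RIC-3 ranged over 117 to 125 CPM in L854F, 114 to 122 CPM in JmjC and 105 to 110.0 CPM in WT, with no overlap. All 8 calls were lost with the mutants as a single group (adjusted p = 0.0581 to 0.0799). Each also ended without WT replicate 2 or without WT replicate 3, with adjusted p between 0.0636 and 0.106 and between 0.0725 and 0.141.

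Called genes were spread unevenly over the chromosomes. The pooled share was 14.9% of tested genes on 3L, 11.6% on 3R, 11.0% on X, 8.7% on 2L and 6.25% on 2R, and 14 of 87 genes on the small chromosome 4 were called (16.1%). The shared changes followed the same order, with 4.19% on 3L, 3.15% on 3R, 2.38% on X, 1.64% on 2L and 1.03% on 2R. In L854F alone the shares were 8.72% on 3L and 6.66% on 3R, against 2.37% on 2L and 2.12% on 2R. In JmjC alone they were 21.1% and 18.7%, against 16.0% and 13.3% in the same order. By the positions given above, several named shared changes also lay near each other within an arm. On 3L these were CG11594, CG1299, CG12607 and CG11349, and separately pst and CG18417. On 3R they were CG31220 and CG17186. Each of these groups held both rises and falls, and whether neighbours changed independently was not tested. The kdm5 gene lies on 2L, and which chromosomes differed in origin between the mutants and WT is not stated. Genes with no position, mostly the transcripts without a symbol, were called in 61 of 171 cases (35.7%).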

How the data were processed

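RNA from 12 nerve cord samples was sequenced by the submitters with a TruSeq stranded mRNA kit on a NovaSeq instrument, per the labels' protocols. The submitters' processing notes list Bowtie2 2.2.5, RSEM 1.2.12, DESeq2 and build dm6. Their roles, the annotation and the strand setting are not given in the sources used here. The authors deposited RSEM expected counts per gene, which were whole numbers, in 1 table per allele, and the WT values were identical in both. The authors' deposited comparison tables served only for gene descriptions and ontology terms.

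The tables were joined on gene identifier. Genes kept by filterByExpr (minimum count 10, minimum total 15) were scaled by TMM and tested with edgeR 4.0.16 under R 4.3.3 by the quasi-likelihood F-test, with Benjamini-Hochberg adjustment over 9354 genes and a threshold of 0.05. The pooled contrast was the mean of L854F and JmjC minus WT, and all adjusted p-values come from this 12-sample fit unless named otherwise. Levels are CPM with TMM-scaled library sizes. Sums of gene lists cover all joined members, also those left out by the filter. Positions, 1-based, come from Ensembl annotation of build BDGP6.54 and were matched by FlyBase identifier. Deposited totals of 15103631 to 16850705 counts limited precision less than the spread between replicates did: the chi-square per degree of freedom within groups was 8.13 to 27.8, and the square root of the common dispersion 9.72%. Intervals and the floor of 3 counts cover counting error only. In simulated counts over 9354 genes for the pooled contrast, 37 of 50 genes changed by 0.5 on the log2 scale, 50 of 50 by 1, 34 of 50 by -0.5 and 45 of 50 by -1 were recovered, with 10 false calls.

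Genes named were kdm5; the 10 largest shared rises and falls among genes averaging 2 CPM or more whose mutant and WT samples did not overlap; 6 opposite genes in each direction; 4 genes called only by pooling in each direction; and up to 4 called members per list with the smallest adjusted p. At most 2 identifiers without a symbol were named in each direction. The comparison, the 45 gene lists and the naming rule were chosen with earlier results of these data known. Alternatives covered normalization, DESeq2 1.42.0, filters, dispersion, thresholds, single-allele fits, a replicate block and leaving out each sample. Python 3.11.15, pandas 2.3.3, numpy 2.4.6 and scipy 1.17.1 were used. No sequence is shown.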

Additional observations from a re-analysis of the deposited data

Results flagged for a closer look

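Of 438 groups of 4 samples examined for the named genes, 27 held a sample far from the others by Dixon's criterion, and chance gives about 1 in 20. Among genes that changed in the same direction these were sordd2 in WT replicate 3 (0.237 CPM), lncRNA:CR32368 in L854F replicate 3 (12.3 CPM), CG11594 in JmjC replicate 4 (3.6 CPM) and AOX1 in WT replicate 4 (67.4 CPM). Kdm5 itself was low in L854F replicate 3 (729 CPM) and WT replicate 3 (665 CPM). Among opposite genes they were Nlg1 in JmjC replicate 4 (2.73 CPM), Su(Ste):CR41533 in JmjC replicate 3 and WT replicate 4 (13.8 CPM in each) and Su(Ste):CR42418 in WT replicate 2 (0.438 CPM).

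Among neuronal lists, FMRFa in L854F replicate 2 (86.9 CPM), Nplp1 in JmjC replicate 3 (460.0 CPM), Lkr in JmjC replicate 4 (28.5 CPM), GluRIA in L854F replicate 1 (105 CPM), GluRIB in JmjC replicate 3 (57.4 CPM), HisCl1 in WT replicate 3 (4.39 CPM) and ple in JmjC replicate 2 (4.04 CPM) stood apart. Receptor and enzyme genes with such a sample were Gr32a in JmjC replicate 2 (2.67 CPM), mth in JmjC replicate 3 (103 CPM), mthl10 in JmjC replicate 2 (42.4 CPM), mthl8 in JmjC replicate 4 (0.062 CPM), GstT3 in JmjC replicate 4 (10.2 CPM) and Lip4 in JmjC replicate 3 (166 CPM). The remaining ones were HSPBAP1 in L854F replicate 4 (6.84 CPM), Met in L854F replicate 2 (31.4 CPM), Cdk1 in WT replicate 3 (40.9 CPM) and TrxT in L854F replicate 4 (0.302 CPM).

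Genes listed in only 1 of the deposited tables lie outside the joined comparison, and 3 of them carried counts in a mutant with none in WT. CG32318 had 42, 38, 47 and 30 counts in JmjC (median 40.0), inaF-B had 0, 9, 13 and 4 counts in JmjC (median 6.5), and pre-mod(mdg4)-H had 50, 53, 0 and 15 counts in L854F (median 32.5).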

How the results depend on the processing

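The pooled count of 1032 was 947 to 1192 under other normalizations, filters, dispersion settings and DESeq2, 369 with the mutants as a single group (all 369 among the 1032), 501 at an adjusted p under 0.01, 450 with at least 0.5 on the log2 scale, and 731 to 1038 when each sample was left out. The same-direction count of 261 was 221 with each allele fitted alone, 331 with DESeq2, 121 at 0.01, 141 with at least 0.5, and 191 to 273 leaving out samples. The opposite count of 28 was 45 with DESeq2, 8 at 0.01, 16 with at least 0.5, and 18 to 40 leaving out samples. The kdm5 change stayed between 0.08 and 0.13 leaving out samples and passed in none of these fits. Replicate numbers paired the samples in part. Of same-numbered pairs of a mutant and WT, 2 of 8 correlated above 0.1. The range was 0.0114 to 0.133 for L854F with WT and -0.0943 to 0.0952 for JmjC with WT. Same-numbered L854F and JmjC samples correlated at 0.103 to 0.172. With 4 candidates for each match, 13 of 24 best matches were the own number. The main fit took no account of replicate number. With a replicate block the pooled, same-direction and opposite counts were 1167, 312 and 43, with 11 glial and 10 muscle genes lower. Chosen after seeing the data, the fit with the mutants as a single group gave 3 heat shock genes higher, 5 neuropeptides lower, 2 amino acid transporters lower, 0 germline genes higher, 20 long noncoding RNAs higher, 7 cell cycle genes higher, 2 glial and 3 muscle genes lower and 13 transposon-like transcripts higher; by construction it counts differences between alleles as error. Leaving out samples gave 4 to 7 heat shock genes higher, 10 to 16 neuropeptides lower, 3 to 6 transporters lower, 5 to 7 germline genes higher and 3 to 4 lower, 31 to 38 long noncoding RNAs higher, 12 to 18 cell cycle genes higher, 4 to 9 glial and 3 to 7 muscle genes lower and 24 to 32 transposon-like transcripts higher. Of 3333 refitted values of named genes 2957 kept direction and side of the threshold, 376 lost the call and none reversed; the cause was not tested. The median over all genes moved between -0.0134 and 0.00501.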
